A study of Potamopyrgus antipodarum with 6 samples.

Results

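To examine how far methylation differed among snails collected at a shared site, 100 bp windows were chosen by their spread among the 3 pools of River 1, collected from the Snake River main channel. Foot tissue DNA came from the asexual freshwater snail Potamopyrgus antipodarum, in 3 pools from River 1 with its fast current and 3 pools from Lake 2 (Lake Washington), which has no current. The sample labels give 10 snails for each pool, while the methods give 10 or 20, with snails added where little DNA was obtained. Which pools held more is not given in the sources used here. The values are averages over snails, and the population is described as a single clonal lineage at all sites. The pools are numbered here as in the deposited table, with 4 to 6 from Lake 2 and 7 to 9 from River 1. The titles of the River 1 samples count 1 number higher, so a River 1 number names a column of the table and not a particular GEO sample. No treatment was applied to either site, and read counts of precipitated DNA carry no expression marker by which the tissue label could be checked.

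MeDIP, short for methylated DNA immunoprecipitation, uses an antibody to 5-methylcytidine to pull down sheared DNA, and the reads over a stretch increase with its methylation and with how well that stretch was recovered. In many molluscs and other invertebrates, cytosine methylation lies mostly within the bodies of a subset of genes, often genes used in most cells, and much of the remaining genome carries little. The reference here was an expressed sequence assembly, so reads were counted over transcribed sequence, and promoters and the DNA between genes were outside it. Windows also run across the stretches that separate its joined contigs, so not every window is transcribed sequence.

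The windows were selected on the River 1 values themselves. Counts of each pool were scaled to CPM (reads of the window per 1e+06 window counts of the pool), after 0.5 was added to each raw count. Of 739509 windows, 221751 had a read in any pool. A mean raw River 1 count of 15 to under 150 was found in 43729, called counted windows. In 1130 of these, or 2.58%, the highest River 1 CPM was at least 2.5 times the lowest. Windows were left out where all River 1 values lay below every Lake 2 value (116 windows) or above it (7 windows). The 1007 windows that remained, called varying windows, were 2.30% of the counted windows and 0.136% of all windows. They therefore differ among River 1 pools and overlap between the sites by construction, and these properties are descriptions with no test.

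Summed counts ranged from 3317802 in pool 8 to 4994212 in pool 4, and the highest count of any window was exactly 300 in each pool. Whether this shared maximum is a ceiling was not tested. The pools differed with the coverage of a window. In windows with a mean Lake 2 count of 15 to under 30, the median log2 CPM relative to the mean of all 6 pools was -0.30 in pool 8 and 0.26 in pool 4. In windows with a mean Lake 2 count of 200 to under 290 the order was turned, with 0.17 in pool 8 and -0.19 in pool 4. There the pools rose in the order 4, 9, 5, 7, 6 and 8, which runs from the largest to the smallest summed count. Pools 5, 6, 7 and 9 stayed between -0.07 and 0.11 in both of these ranges and in the ranges between and below them.

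**Figure D1:**
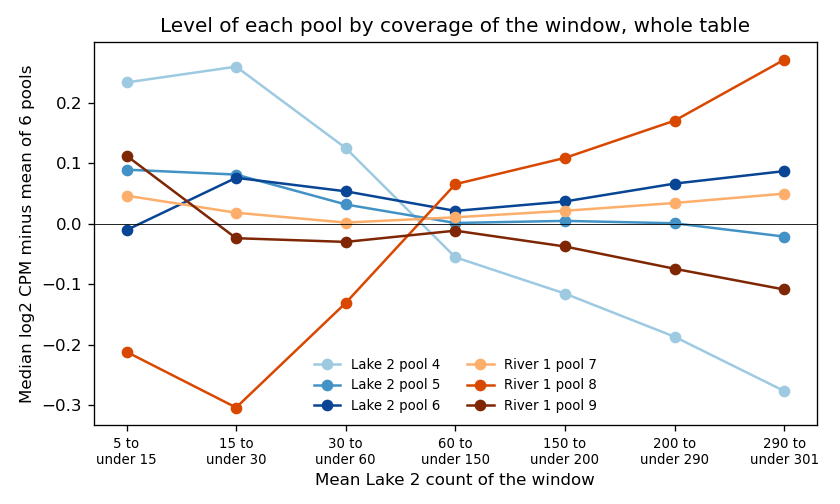
Median log2 CPM of each pool minus the mean of the 6 pools (vertical axis) in classes of mean Lake 2 count (horizontal axis), over the whole table. Pool 8 lies at -0.30 in the class of 15 to under 30 and at 0.17 in the class of 200 to under 290, while pool 4 runs the opposite way.

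Most varying windows were windows in which pool 8 was low. Pool 8 had the lowest River 1 CPM in 827 of the 1007 windows, or 82.1%, against 40.3% of all counted windows and 51.6% of the other counted windows with a mean count of 15 to under 30, the range of 970 varying windows. Pool 7 was lowest in 119 varying windows (11.8%, against 30.2% of counted windows) and pool 9 in 61 (6.06%, against 29.5%). The highest value was shared between pool 7, in 489 windows, and pool 9, in 476, and it was in pool 8 in only 42 windows. By order, pool 7 was highest with pool 8 lowest in 435 windows and pool 9 highest with pool 8 lowest in 392. Pool 9 was highest with pool 7 lowest in 84, and pool 7 was highest with pool 9 lowest in 54. The low pool usually stood by itself. The gap below the middle pool was the wider one on the log scale in 754 varying windows (74.9%, against 49.9% of counted windows), and in 651 of these pool 8 was the low one.

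**Figure D2:**
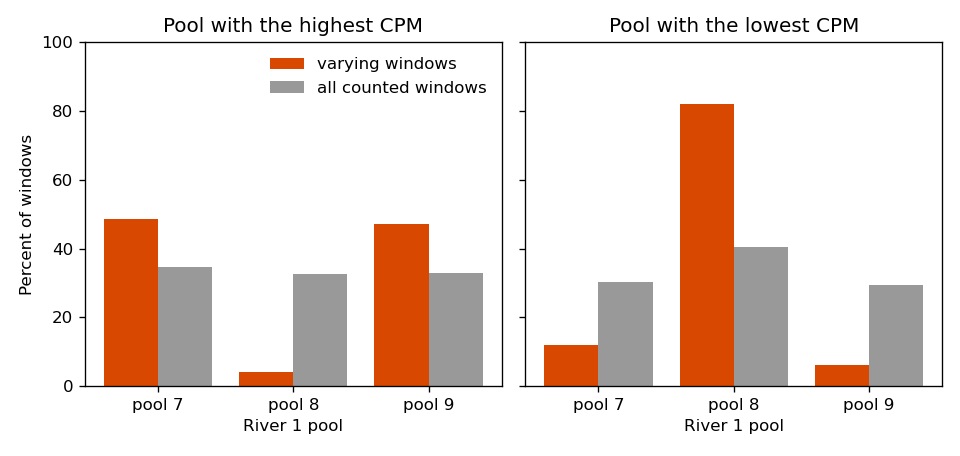
Percent of windows (vertical axis) in which each River 1 pool had the highest CPM (left panel) or the lowest CPM (right panel), for the 1007 varying windows and all 43729 counted windows. Pool 8 is lowest in 82.1% of varying windows and highest in 4.17%.

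The share of pool 8 depended on how the pools were scaled. With edgeR's TMM factors 803 windows met the rule and pool 8 was lowest in 74.5%, and with DESeq2 size factors 724 did and pool 8 was lowest in 67.5%. Scaling each pool within classes of mean Lake 2 count, an alternative chosen after seeing the data, left 721 windows and 58.9%. Under each of these scalings pool 8 was still the pool most often lowest. Without pool 8, 256 windows met the rule, compared with 439 without pool 7 and 433 without pool 9. What part of the low values in pool 8 goes with the coverage of a window was not tested further.

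Across the varying windows, the median CPM was 5.97 in pool 7, 2.56 in pool 8 and 5.80 in pool 9. The Lake 2 pools, which entered the exclusion but not the ratio, had medians of 6.31 in pool 4, 5.18 in pool 5 and 5.34 in pool 6. Pool 8 was thus the only pool of the 6 whose upper quartile (3.16) lay below the lower quartile of every other pool (3.78 in pool 6 was the lowest of these). Over all counted windows the same medians ranged from 8.59 in pool 8 to 9.71 in pool 4. The varying windows together took up 2861 CPM in pool 8 and 5350 to 6502 CPM in each of the other pools, whereas all counted windows took up 538765 CPM in pool 8 and 542043 to 546142 in the others.

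**Figure D3:**
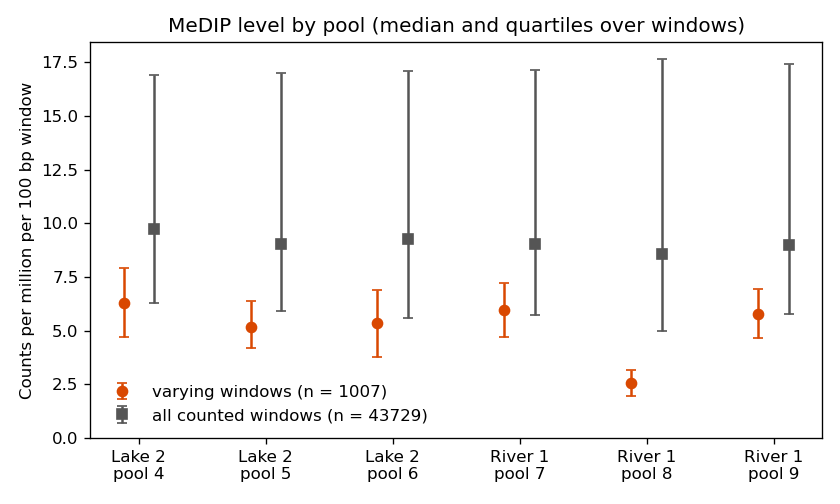
CPM per window (vertical axis) in each of the 6 pools, as the median with lower and upper quartile over the 1007 varying windows (circles) and over the 43729 counted windows (squares). Among varying windows, pool 8 has a median of 2.56 CPM and the other pools have medians of 5.18 to 6.31.

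Set against the mean of Lake 2, the low pool had a larger median difference than the high pools where pool 8 or pool 9 was lowest. In the 827 windows with pool 8 lowest, the median log2 difference from the Lake 2 mean was -1.29 in pool 8, 0.06 in pool 7 and 0.03 in pool 9. Pool 8 lay below all Lake 2 pools in 792 of these windows, as it did in 39.6% of counted windows and in 50.0% of the other counted windows with a mean count of 15 to under 30. Pool 7 lay within the range of Lake 2 in 466 of the 827 windows and pool 9 in 335, with the others on either side of it. In the 61 windows with pool 9 lowest, pool 9 had a median difference of -1.28 and pool 8 was lower too, at -0.57, with pool 7 at 0.19. The 119 windows with pool 7 lowest had another pattern, in which pool 7 was 0.48 below the lake (median -0.48) and pools 8 and 9 were above it (0.60 and 0.91). Of the 42 windows with pool 8 highest, 35 had pool 7 lowest and so are among these 119. The medians over the 42 were 1.05 in pool 8, 0.46 in pool 9 and -0.28 in pool 7. In 482 of the 1007 varying windows the River 1 values ranged both below and above all Lake 2 values, against 14.5% of counted windows. The rule favours both this and a low pool below the lake, so these contrasts are descriptions.

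Varying windows were windows of low count. Their mean River 1 count had a median of 18, against 33.3 for counted windows, and none exceeded 58. The ratio of 2.5 was reached by 7.70% of windows with a mean count of 15 to under 20, 3.36% of those with 20 to under 30, 0.454% of those with 30 to under 50 and 0.0287% of those with 50 to under 80. None of the 8346 windows with 80 to under 150 reached it. The count of the lowest pool had a median of 8, and it was under 10 in 776 varying windows and under 5 in 46, but never 0. Exact 95% Poisson intervals of the highest and the lowest pool, which cover counting error only, did not overlap in 557 varying windows (55.3%) and in 3.11% of counted windows. The rule chose windows by these same counts, and the intervals compare the extreme pools only, so this contrast is a description. The ratio had a median of 2.83, was under 3 in 632 windows, and reached 5 in 22. At the limit of the rule, the 3 windows just inside had counts of 9 in pool 8 and 31 in pool 9, and the 3 just outside had 23 in pool 7 and 10 in pool 9.

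The windows with the largest ratios all had pool 8 lowest. The largest was at positions 17422001 to 17422100 of the joined assembly, with 24, 1 and 20 counts in pools 7, 8 and 9 and 24, 23 and 9 in Lake 2. Its ratio of 13.8 had a counting interval of 3.30 to 832, since it rests on 1 count in pool 8. The next, at 657201 to 657300, had 21, 1 and 23 counts in River 1 and 31, 19 and 20 in Lake 2 (ratio 12.1, counting interval 2.85 to 732). On contig 02999, the window at 5969301 to 5969400 had 20, 2 and 28 counts in River 1 and 35, 23 and 23 in Lake 2 (ratio 8.60, interval 2.66 to 91.5). In these 3 windows pool 8 was below every other pool and pools 7 and 9 lay within or near the range of the lake. The window at 4555201 to 4555300 had 15, 3 and 33 counts in River 1 and 22, 26 and 9 in Lake 2, so its high value was in pool 9 and a lake pool was low too. On contig 13534 the counts at 22948301 to 22948400 were 15, 3 and 31 in River 1 and 34, 28 and 29 in Lake 2.

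The varying windows with the most reads were better determined and less uniform. The highest mean count, 58, was on contig 20229 at 32752801 to 32752900, with 31, 67 and 76 counts in River 1 and 49, 40 and 31 in Lake 2. Here pool 7 was lowest and pool 8 highest (ratio 2.54, counting interval 1.65 to 4.06), and pools 8 and 9 exceeded all Lake 2 pools. At 4174601 to 4174700 the River 1 counts were 51, 24 and 84 and the Lake 2 counts 68, 52 and 38, with pool 9 highest in CPM of all 6 pools. On contig 01213, the window at 2576001 to 2576100 had 52, 15 and 65 counts in River 1 and 67, 48 and 49 in Lake 2, so pool 8 was again alone below the rest (ratio 3.19, interval 1.84 to 6.17).

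Neighbouring windows share fragments, and the low values extended along the contig. The 1007 windows lay on 884 contigs of the 15783 with a counted window, 774 of them with 1 varying window, 98 with 2, 11 with 3 and 1 with 4. They formed 898 runs of adjacent windows, of which 797 were a window alone, and 210 varying windows (20.9%) touched another. In 93 of the 101 longer runs all windows had the same lowest pool. Around windows with pool 8 lowest, the log2 CPM of pool 8 minus the mean of pools 7 and 9 had a median of -1.29 in the window itself, -0.86 and -0.90 in the windows 100 bp before and after, and -0.50 and -0.46 at 200 bp. At 500 bp it was -0.36 before and -0.25 after, and 76.2% and 68.3% of the windows there that were not themselves varying windows were below 0. All windows with a mean count of 5 or more had a median of -0.10 with 58.4% below 0, and counted windows of 15 to under 30 had a median of -0.22.

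**Figure D4:**
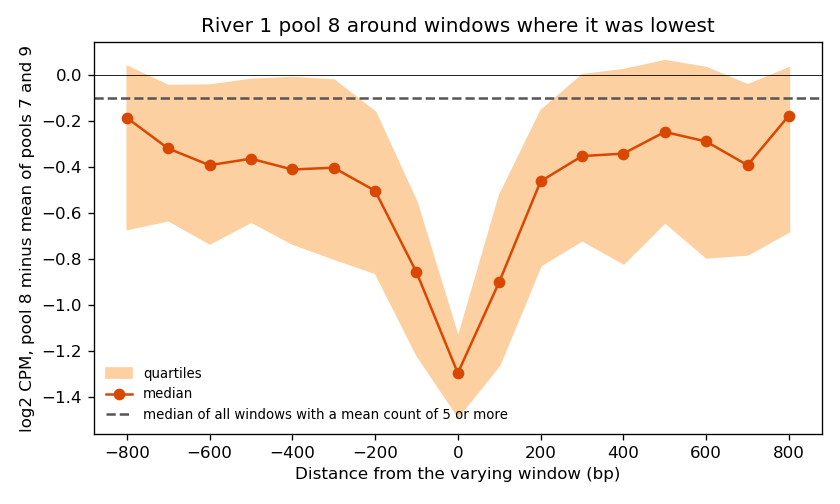
Log2 CPM of pool 8 minus the mean of pools 7 and 9 (vertical axis) by distance in bp from the 827 varying windows with pool 8 lowest (horizontal axis), as median and quartiles over neighbouring windows of the same contig with a mean count of 5 or more. The median goes from -1.29 at the window to -0.50 and -0.46 at 200 bp, and the dashed line at -0.10 is the median of all windows with that count.

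The order of the pools was also read in another counted window of the same contig. This was the nearest one at least 500 bp away that was not a varying window. The rule had used the values of that window too, to keep it out of the varying windows. Such a window existed for 178 varying windows. The pool that was highest in the varying window also exceeded the lowest there in 117 of them, or 65.7% (95% Wilson interval 58.5% to 72.3%), against 59.4% of 10522 other counted windows. Where pool 7 was highest and pool 8 lowest it did so in 46 of 72 (63.9%), while pool 7 exceeded pool 8 in 53.5% of all counted windows. Where pool 9 was highest and pool 8 lowest it did so in 47 of 71 (66.2%, against 54.4%). Where pool 9 was highest and pool 7 lowest it did so in 13 of 17, and pool 9 exceeded pool 7 in 49.1% of counted windows. Where pool 7 was highest and pool 9 lowest it did so in 6 of 12, with 50.9% in counted windows, and where pool 8 was highest and pool 7 lowest in 5 of 6, with 46.5%. The overall share of 65.7% was 57.1% with DESeq2 size factors, 56.1% when scaled within classes of Lake 2 count and 55.3% without pool 8. The interval takes each window as independent, although all of these windows share the same libraries, so no test was made. Nor were the shares of counted windows matched by count. The log2 CPM of pool 8 minus the mean of pools 7 and 9 had a median of -0.22 at a mean count of 15 to under 30. Over all counted windows it was -0.04.

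Some contigs held several varying windows. Contig 13498 had 4 in a row, at 22893401 to 22893800, with pool 7 highest in each. Its River 1 counts were 24, 12 and 10 in the first, 30, 13 and 10 in the second, 32, 7 and 13 in the third and 36, 10 and 21 in the last, so pools 8 and 9 were both low. Lake 2 had 37, 24 and 20 counts in the first and 45, 40 and 38 in the last. Contig 01099 was alike, with 38, 9 and 18, then 53, 18 and 16, then 36, 12 and 15 counts in River 1 at 2343901 to 2344200. On contig 11925, at 20547001 to 20547300, pool 8 alone was low in River 1, with counts of 15, 6 and 26, then 20, 6 and 26, then 34, 8 and 32. On contig 01793 the 3 varying windows, between 3717901 and 3719000, were not adjacent, and pool 8 had 7, 8 and 4 counts against 18 to 32 in pools 7 and 9.

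By position, the outermost window of a contig made up 7.25% of them, against 20.5% of other counted windows and 19.7% of other counted windows with a mean count of 15 to under 30. Windows at most 1 window from a contig end made up 45.2% of varying windows and 53.7% of the latter. The contigs had a median of 7 windows in each of these classes. In the order of the assembly they lay earlier, at a median position of 18.0 Mb, against 24.4 Mb for other counted windows with a mean count of 15 to under 30.

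Lake 2 provided pools that the ratio did not use, although the exclusion of separating windows did. Among its 3 pools the highest CPM was at least 2.5 times the lowest in 0.972% of counted windows and in 31 varying windows (3.08%). The median ratio of highest to lowest was 1.47 in varying windows and 1.25 in other counted windows. Part of this gap goes with the count, since at a mean count of 15 to under 20 the medians were 1.50 and 1.41, at 20 to under 30 they were 1.43 and 1.32, and at 30 to under 50 they were 1.43 and 1.24. The exclusion also raises it. The 123 windows left out had a median of 1.27, and with them kept the median was 1.44. Separating windows were not removed from the other counted windows. With a Lake 2 pool left out the median in varying windows was 1.26, 1.26 or 1.30, but for a given window the ratio over fewer pools cannot be larger. Lake 2 also had an order of its own, with pool 4 highest in 59.6% of varying windows (38.0% of counted windows) and lowest in 11.9% (33.6%). With the rule turned around, 591 of 52556 windows (1.12%) varied among Lake 2 pools, and 20 windows were in both sets, which is 1.99% of the River 1 set and 3.38% of the Lake 2 set.

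Of the 31 varying windows with a Lake 2 ratio of at least 2.5, those with the largest Lake 2 ratios are shown by their counts. The window at 30575801 to 30575900 had 5, 21 and 24 counts in River 1 and 7, 22 and 1 in Lake 2, with a Lake 2 ratio of 13.9. At 7132101 to 7132200 River 1 had 11, 11 and 32 counts and Lake 2 had 23, 22 and 3. At 55604001 to 55604100 the counts were 8, 27 and 28 in River 1 and 22, 13 and 4 in Lake 2. Pool 7 was lowest in each of these windows, and pool 6 was the low lake pool. Of the 119 varying windows with pool 7 lowest, 8.40% had a Lake 2 ratio of at least 2.5, compared with 2.42% of the 827 with pool 8 lowest. Most of the 31 windows still had pool 8 lowest.

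Gene names were taken from the tables of differential regions that accompany the study, where they rest on sequence similarity to genes of other species. Varying windows fell in gene-named regions in 21 cases (2.09%), close to the 1.96% of other counted windows with a mean count of 15 to under 30. These regions carry 20 gene names, and pool 8 was lowest in 20 of the 21 windows. Of the 574 counted windows in such regions 3.66% were varying windows, and of all counted windows 2.30%. The counts of groups that follow are to be read beside these shares. Since regions were listed for differences between sites, in part on these same pools, the names cover a selected part of the assembly, and the copy of the list for Lake 1 and River 2 that was read may lack some regions.

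Regions named for proteasome subunits, which take part in protein breakdown, held 3 varying windows among 13 counted windows, on 2 contigs. PSMA4, an alpha subunit of the proteasome core, held 2 of them, adjacent windows on contig 00070. At 169301 to 169400 the counts were 38, 8 and 34 in River 1 and 74, 37 and 54 in Lake 2 (River 1 ratio 3.82, counting interval 1.84 to 9.93). PSMB5, a beta subunit with catalytic activity, had 25, 6 and 23 counts in River 1 and 34, 23 and 22 in Lake 2 on contig 00261, at 596301 to 596400. In both genes pool 8 was below every other pool, while pools 7 and 9 were within or near the lake's range in CPM.

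The window named eif2s3, the gamma subunit of a translation initiation factor, had 34, 9 and 18 counts in River 1 and 64, 31 and 42 in Lake 2 (contig 00039, 91801 to 91900), and it was the only varying window among 11 counted windows in regions of translation factors. The window named sec61g, a subunit of the channel through which new proteins enter the endoplasmic reticulum, had 22, 8 and 41 counts in River 1 and 33, 33 and 23 in Lake 2. The window named hspa5, a chaperone of the endoplasmic reticulum, had 29, 8 and 18 counts in River 1 and 55, 24 and 36 in Lake 2. It was 1 of 13 counted windows in regions of heat shock proteins and chaperones. Pool 9 was highest at sec61g, and pool 7 was the highest River 1 pool at the other windows named here.

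Other named genes belonged to energy metabolism, cell structure and signaling. The window with the largest ratio among them was named cyc1.L, for cytochrome c1 of the respiratory chain, with 35, 7 and 29 counts in River 1 and 50, 35 and 44 in Lake 2 (ratio 3.99, counting interval 1.84 to 11.2; contig 02373, 4820401 to 4820500). The window named cgn, for cingulin of vertebrate tight junctions, had 26, 6 and 15 counts in River 1 and 48, 21 and 21 in Lake 2. The window named HIPK2, a protein kinase of the nucleus, had 22, 5 and 18 counts in River 1 and 26, 25 and 20 in Lake 2. The exception to pool 8 being lowest was a window on contig 00767, at 1670901 to 1671000, whose region carries the name Cnot6l, an enzyme that shortens the poly(A) tails of mRNA, beside a predicted mouse gene. It had 10, 25 and 20 counts in River 1 and 23, 6 and 5 in Lake 2, so pool 8 was the highest of all 6 pools and pool 4 stood above the rest of the lake.

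**Figure D5:**
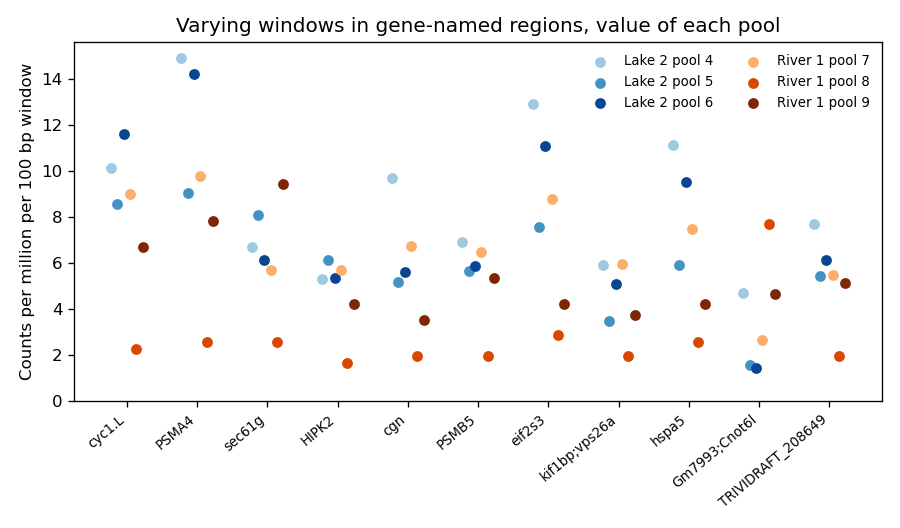
CPM per window (vertical axis) of each of the 6 pools in 11 varying windows that lie in a region with a gene name (horizontal axis, ordered by ratio). Pool 8 is the lowest of the 6 pools in each window except the one named Gm7993 and Cnot6l, where it is the highest.

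By category of those tables, 5 of 123 counted windows in metabolism regions were varying windows, 4 of 28 in protease regions, 2 of 70 in signaling, 2 of 63 in transport, 2 of 23 in development, 1 of 16 in receptors, 1 of 53 in translation, 1 of 39 in cytoskeleton and 1 of 29 in transcription. None of the 10 counted windows in ribosomal protein regions was. Contigs with names of mitochondrial genes such as COX1, a subunit of cytochrome c oxidase, held 41 counted windows and no varying window. Their highest ratio was 2.45, and pool 7, not pool 8, was the lowest River 1 pool in 33 of the 41. Counts in these groups are small, and no set test was made.

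Whether the sites differed at the varying windows was read from a fit of edgeR's quasi-likelihood test over 151608 windows. Of these, 0.147% had an unadjusted p-value under 1e-05 and 1.42% had an adjusted p-value (Benjamini-Hochberg) below 0.05. The sites did not overlap in 25.5% of counted windows, and by the rule they overlap in every varying window. No varying window passed 1e-05 and 6 had an adjusted p-value under 0.05. An unadjusted p-value under 0.05 was found in 236 (23.4%), against 14.3% of all windows tested. DESeq2's Wald test gave 0 varying windows at an adjusted p-value of 0.05 and 49 at an unadjusted one. Over all 151608 windows it gave 10 and 7041. The median log2 fold change of River 1 over Lake 2 was -0.20 in varying windows and 0.03 in counted windows. It was negative in 675 varying windows (67.0%), against 46.0% of counted windows. Since the windows were selected on River 1 counts, mostly with pool 8 low, these fold changes and p-values follow in part from the selection, and nothing is read from them.

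All 6 windows with an adjusted p-value under 0.05 were lower in River 1, and in each pool 8 was lowest and pool 7 the highest of River 1. They are named here after their values were seen, and the rule used these counts. The eif2s3 window had a log2 fold change of -0.99 (SE 0.24, adjusted p = 0.0253 by edgeR), and the PSMA4 window had -0.87 (SE 0.23, adjusted p = 0.0355 by edgeR). The largest difference was on contig 18366 at 29963001 to 29963100, with 26, 7 and 14 counts in River 1 and 56, 25 and 41 in Lake 2 and a log2 fold change of -1.19 (SE 0.26, adjusted p = 0.0122 by edgeR). In each of the 6 windows pool 4 had the most reads of Lake 2. Without pool 4, pool 6, pool 8 or pool 9 none of the 6 had an adjusted p-value under 0.05 by edgeR (0.0507 to 0.392 over these fits), and all 6 did without pool 5 or pool 7. By DESeq2's Wald test their adjusted p-values were 0.536 to 0.663, and the log2 fold change stayed negative in each of these fits.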

How the data were processed

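MeDIP libraries of 3 Lake 2 and 3 River 1 pools were analysed. Per the study's methods, the authors used Bowtie2 for alignment to a joined P. antipodarum transcriptome, SAMtools for sorting and MEDIPS for counting over 100 bp windows. FastQC and Trimmomatic are named in the submitters' processing notes, and tool versions are not given in the sources used here. The deposited table gives raw counts, not normalized. A further 6 per-pool columns (RPKM) were not used, nor were the deposited fold changes and p-values. MeDIP reads carry no molecular identifiers, and the counting intervals take each read as independent and cover counting error only. Wilson intervals take each window as independent. Replicates are pools of separate snails per the labels, so p-values set the difference between these sites against the spread between pools. Pools of a shared site do not replicate its habitat.

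The varying windows and the lists of genes were chosen with earlier results of these data known. River 1 columns could be assigned to their site only. Stretches of 9 or more windows with no read were taken as contig borders, and contig and gene names from the supplementary tables of the study. Ratios carry exact conditional counting intervals and shares Wilson intervals, both at 95%. Sites were compared by edgeR 4.0.16 (R 4.3.3; quasi-likelihood, TMM, no covariates) over windows whose counts summed to 10 or more, with DESeq2 1.42.0 as the alternative. Scripts used Python 3.11.15 with scipy 1.17.1 and were tested on simulated data. The windows simulated for the rule had higher counts and larger differences than most varying windows, so low counts were not covered. Named windows were the 8 with the largest ratio, those on the 5 contigs with the most varying windows, the 4 with the highest count, the 4 with the largest Lake 2 ratio, up to 15 with a gene name, and the 3 on each side of the limit; not all are described. Alternatives changed the added count, the scaling, the limits of the rule, the distance and contig borders, the low count filter and the test, and left out each pool in turn.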

Additional observations from a re-analysis of the deposited data

How the results depend on the processing

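Pool 8 was the pool most often lowest in varying windows under every alternative that kept it. The number of varying windows stayed between 721 and 1180 when the added count, the scaling or the exclusion of separating windows was changed. It was 3081 at a ratio of 2, 375 at a ratio of 3 and 37 with a mean count from 30, and 256 to 992 when a pool was left out. The share with pool 8 lowest was 82.1%, and it was 74.5% with TMM, 67.5% with DESeq2 size factors, 58.9% when scaled within classes of Lake 2 count (chosen after seeing the data), 74.7% at a ratio of 2, 85.6% at a ratio of 3 and 70.3% with a mean count from 30. With a pool left out it was 81.3% (without pool 5) to 98.4% (without pool 7). The median Lake 2 ratio of 1.47 was 1.43 with DESeq2 size factors, 1.37 with a mean count from 30 and 1.42 when scaled within classes, and 1.26 to 1.50 with a pool left out. The number of windows past 1e-05 between the sites, 223, was 644 without the count filter, 10 by DESeq2's Wald test and 67 (without pool 6) to 536 (without pool 7) with a pool left out. Windows with an adjusted p-value under 0.05 numbered 2152, and 3294, 10 and 306 to 5110 under the same changes. Each cause was not tested. The share of pool orders kept at a distance ranged from 54.4% to 72.0%. With 3 pools a site and a median of 8 counts in the lowest pool, ratios near 2.5 at low counts are imprecise.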
